A study of Mus musculus with 2 samples.

Results

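The collagen genes described here are the 42 autosomal protein-coding genes of the mouse whose symbol is Col, a number, the letter a and a number, among 20560 autosomal protein-coding genes. The rule that picks them reads the symbol only. Col4a5 and Col4a6 carry such symbols too, but lie on the X chromosome and were not counted among the 42. The measurement is 5hmC-Seal, which tags 5-hydroxymethylcytosine (5hmC), the first oxidation product that TET enzymes make from 5-methylcytosine, and pulls the tagged DNA down for sequencing. The samples were 1 captured library (5hmC bound through glucose and biotin to streptavidin) and 1 library of the same kind of DNA before capture. Both came from WT prospermatogonia, which are foetal male germ cells, taken at E17.5 (days of embryonic development), in batch 1. DNA of 30000 frozen cells from several embryos was pooled and 50 ng was sheared, so a value is an average over animals. The labels used here name no strain. The series asks how TET1, apart from its catalysis, relates to new DNA methylation in these cells. Only the captured library's list of 108395 broad peaks was analysed here, 106034 of them on autosomes, and with 1 library nothing could be tested across samples.

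Collagens are secreted or membrane-bound proteins in which 3 chains wind into a triple helix built on a repeated glycine motif. Fibrillar collagens form the cables of bone, skin and cartilage, type IV collagen forms the sheet of basement membranes, and the other classes decorate fibrils, anchor cells or span the cell membrane. In the foetal testis, basement membrane collagen lies in the wall of the cords that hold the germ cells, and fibrillar chains are mainly products of mesenchymal cells. 5hmC on a gene is a mark on DNA, and a peak says nothing by itself about whether the gene is transcribed.

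A peak list does not measure transcripts, so the labelled cell type could not be checked against expression. Peaks overlapped 5 of 8 germ cell, 2 of 4 Sertoli, 1 of 4 Leydig, 3 of 4 peritubular and mesenchymal and 4 of 5 endothelial and blood markers, where 64.3% of all autosomal protein-coding genes had a peak. The covered share, the percentage of a gene's span that lies in peaks, had a median of 2.59% in the germ cell list, against 4.57% for the medians of genes of like length, and 2 of the 8 were above their like-length median. The medians were 1.47% in the Sertoli and 0% in the Leydig list, against like-length 2.31% and 4.86%. They were 1.13% in the peritubular and mesenchymal and 5.24% in the endothelial and blood list, against 4.60% and 3.96%. Above their like-length medians were 1 of 4 Sertoli, 1 of 4 Leydig, 1 of 4 peritubular and mesenchymal and 3 of 5 endothelial and blood markers. Peaks per 100 kb were 9.10 (exact Poisson 95% interval 5.09 to 15.01) in the germ cell list, 6.94 (2.25 to 16.2) in the Sertoli, 3.62 (0.438 to 13.1) in the Leydig, 6.76 (3.38 to 12.1) in the peritubular and mesenchymal and 6.93 (4.23 to 10.7) in the endothelial and blood list. All 5 intervals overlap each other and hold the 5.83 of all genes, so the lists do not tell the cell types apart. Sall4 was covered to 58.8% and Ddx4 to 1.51%, and Dazl, Nanos2, Nanos3, Sox9, Amh, Hsd3b1, Star, Insl3, Tcf21 and Ptprc had no peak. What other cell types contributed to the collagen values was not tested.

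As a group the collagen genes carried about as much 5hmC peak sequence as other genes of their length, but single members ranged from no peak to 44.5% of the gene in peaks. Peaks overlapped 36 of the 42 collagen genes (85.7%; exact Clopper-Pearson 95% interval 71.5 to 94.6), against 64.3% of all autosomal protein-coding genes. Collagen genes are long, with a median span of 110.4 kb against 17.6 kb over all genes. Among the 200 genes nearest in length to each collagen gene, 88.7% had a peak on average, close to the collagen share. The median covered share was 4.42% in collagen genes (order-statistic 95% interval 1.73 to 7.64) and 2.76% over all genes. The medians of the like-length genes had a median of 4.05%.

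The group split evenly around the genes of its length. Of the collagen genes, 21 of 42 (50%; 34.2 to 65.8) were covered above the median of their 200 like-length genes, where 43.5% of all genes were. Many very short genes tie with a like-length median of 0% and count as not above it, which lowers the share over all genes. At the upper end, 2 collagen genes, Col2a1 and Col8a2, ranked above 90% of their like-length genes (4.76%; 0.582 to 16.2), against 9.39% of all genes. At the lower end, 6 collagen genes (Col1a2, Col3a1, Col4a3, Col5a2, Col11a1 and Col12a1) ranked below 10%, against 4.58% of all genes. A gene without a peak ranks so low only where few genes of its length lack one. Short genes therefore seldom can, and the 4.58% is not a share among genes of like length. A covered share of 10% or more was reached by 12 collagen genes (28.6%), against 25.7% of all genes. Collagen spans held 247 peaks, or 0.233% of the autosomal list. Their density was 5.02 per 100 kb (exact Poisson 95% interval 4.41 to 5.69), against 5.83 (5.79 to 5.88) over all genes. Both densities are pooled over genes of every length, and a like-length density was not computed. Intervals for shares and densities cover counting error only, neighbouring peaks are not independent of each other, and the sequencing depth is unknown because the list gives no read counts.

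**Figure D1:**
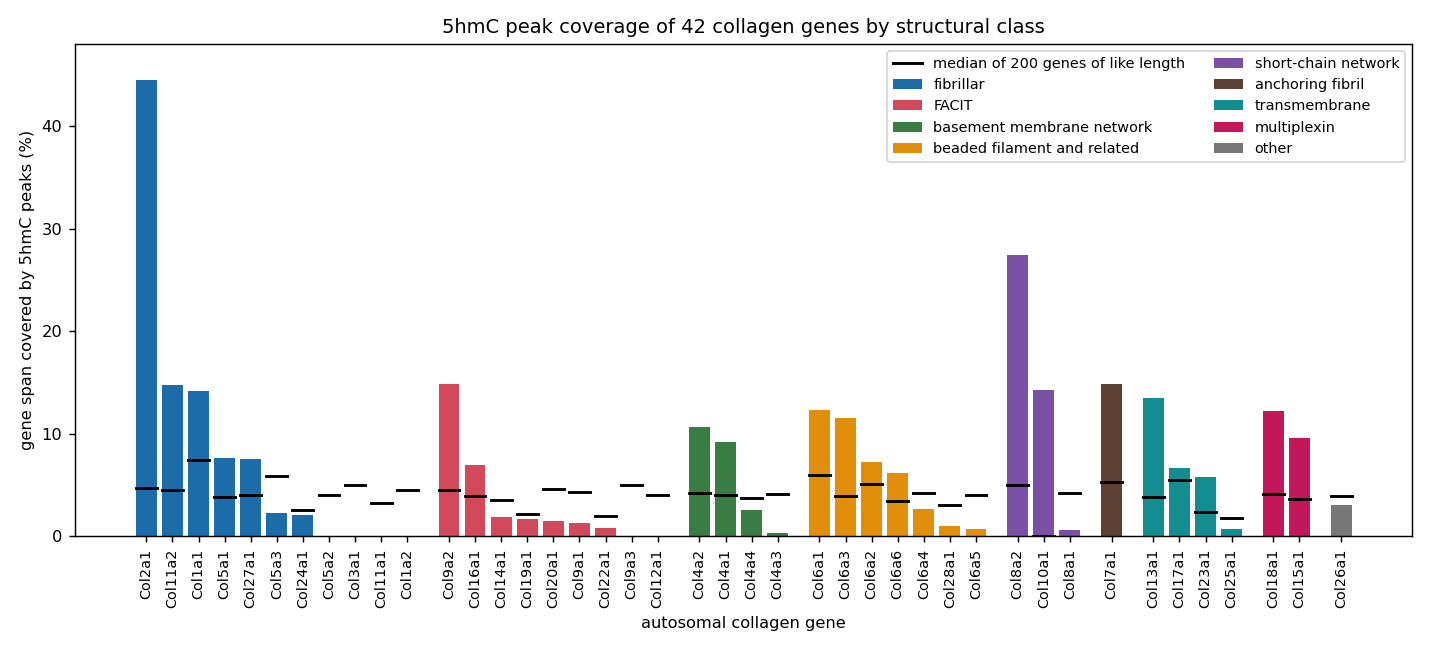
Bars give the percentage of each collagen gene's span covered by 5hmC peaks in the captured library, grouped by structural class; black ticks give the median of the 200 genes nearest in length. Col2a1 stands at 44.5% and Col8a2 at 27.5%, while 6 genes have no bar, and every class with more than 2 members holds genes both above and below their ticks.

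**Figure D2:**
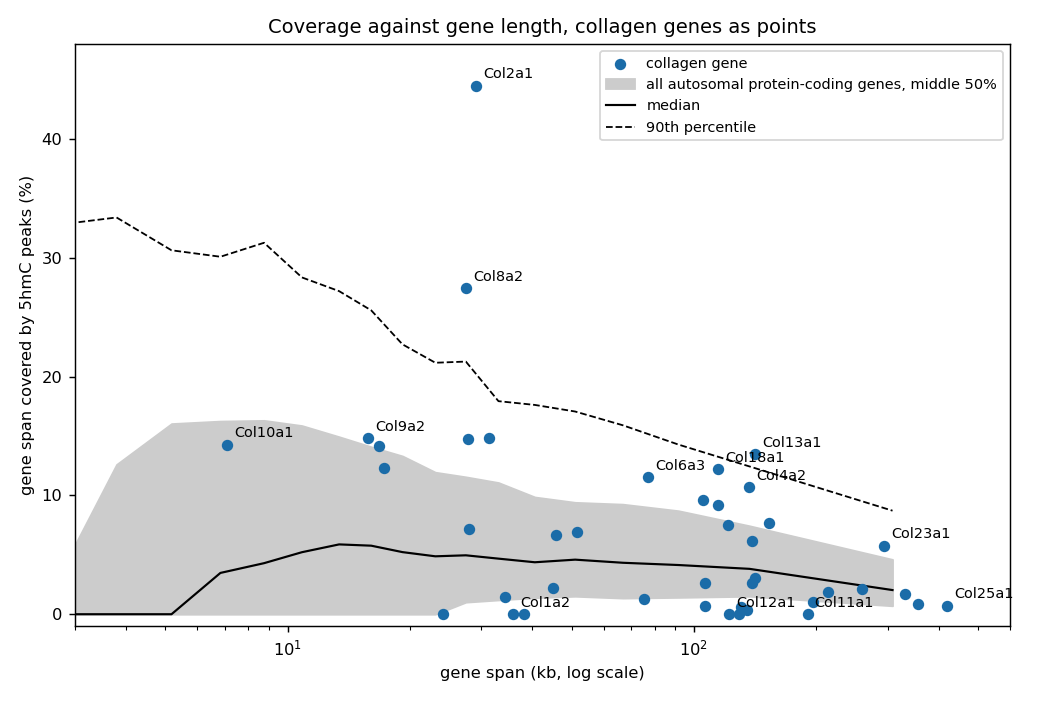
Each point is a collagen gene, with its span in kb on a log axis and its covered share in percent; the grey band, solid line and dashed line give the middle 50%, the median and the 90th percentile of all autosomal protein-coding genes in 20 classes of length. Collagen genes scatter over and around the band, from 0% to 44.5%.

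The peaks in collagen genes resembled those in other genes in strength and width. Their median fold enrichment, a ratio given per peak in the authors' list, was 3.18 (order-statistic 95% interval 3.12 to 3.27), against 3.24 for the 57235 peaks that overlap any autosomal protein-coding gene. Their median width was 649 bp, against 660 bp. A −log10 q of 5 or more was reached by 12 of the 247 (4.86%; 2.54 to 8.33), against 4.81% of the genic peaks, and 14 of the 247 were 2 kb or wider (5.67%), against 8.04%. Among genes, 8 collagen genes held a peak of that strength, where 9.24% of all genes did, and 20 held a peak with a −log10 q of at least 3, where 23.7% of all genes did. The 9.24% and 23.7% are over genes of every length, and the like-length share was not computed for them.

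Few promoters were under a peak, in collagen genes as over all genes. The 3 collagen promoters that were held few CG dinucleotides, the sites of methylation and hydroxymethylation in mammals. RefSeq start windows on GRCm38.p6, from 250 bases before to 50 after a start, were found for 33 of the 42 collagen genes, 36 windows in all. A peak overlapped 3 of the 36 (8.33%; 1.75 to 22.5), against 4.15% of 20085 windows of autosomal protein-coding genes. The 4.15% lies inside that interval. The 3 windows belong to Col6a1, Col6a3 and a start inside Col18a1, and held 3, 3 and 6 CG. The 33 windows without a peak held a median of 13 CG, with a range from 0 to 37. Over all genes the order was the same, with a median of 6 CG in windows with a peak and 14 in windows without. CG, which reads the same on both strands, was present in 33 of the 36 collagen windows and in 95.6% of all windows.

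The windows under a peak are shown first, and then the CG-dense pair at the shared start of Col4a1 and Col4a2 and the CG-free window of Col3a1, both without a peak. Each is written 5′ to 3′ on the strand of its gene, with CG in capitals. Col6a1 lies on the minus strand (chr10:76725995-76726294), Col6a3 likewise (chr1:90843922-90844221), and the inner start of Col18a1 likewise (chr10:77113656-77113955). The Col4a1 window (chr8:11312777-11313076, minus strand) and the Col4a2 window (chr8:11312555-11312854, plus strand) share 78 bp. The Col3a1 window is on the plus strand (chr1:45311288-45311587).
Col6a1: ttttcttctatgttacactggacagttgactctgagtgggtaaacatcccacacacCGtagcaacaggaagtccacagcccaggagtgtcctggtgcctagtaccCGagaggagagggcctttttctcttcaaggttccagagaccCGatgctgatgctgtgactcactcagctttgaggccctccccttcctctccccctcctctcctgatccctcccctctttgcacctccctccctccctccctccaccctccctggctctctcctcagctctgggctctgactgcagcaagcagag
Col6a3: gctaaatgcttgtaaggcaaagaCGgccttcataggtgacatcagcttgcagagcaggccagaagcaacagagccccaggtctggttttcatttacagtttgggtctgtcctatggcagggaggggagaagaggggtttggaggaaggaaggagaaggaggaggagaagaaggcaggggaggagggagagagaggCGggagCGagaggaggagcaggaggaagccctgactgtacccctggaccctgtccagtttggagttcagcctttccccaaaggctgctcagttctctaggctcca
Col18a1: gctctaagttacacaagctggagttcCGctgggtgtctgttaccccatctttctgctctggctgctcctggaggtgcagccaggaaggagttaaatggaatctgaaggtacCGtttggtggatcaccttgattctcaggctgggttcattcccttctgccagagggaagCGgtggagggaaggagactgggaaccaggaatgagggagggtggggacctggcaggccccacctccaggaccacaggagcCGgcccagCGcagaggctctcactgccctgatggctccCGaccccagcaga
Col4a1: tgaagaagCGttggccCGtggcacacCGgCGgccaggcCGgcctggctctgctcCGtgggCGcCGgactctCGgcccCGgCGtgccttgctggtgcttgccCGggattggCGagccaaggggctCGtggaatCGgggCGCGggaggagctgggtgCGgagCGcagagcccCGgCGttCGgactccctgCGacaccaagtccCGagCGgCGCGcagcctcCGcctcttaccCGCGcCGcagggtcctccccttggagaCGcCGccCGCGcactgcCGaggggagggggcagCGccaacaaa
Col4a2: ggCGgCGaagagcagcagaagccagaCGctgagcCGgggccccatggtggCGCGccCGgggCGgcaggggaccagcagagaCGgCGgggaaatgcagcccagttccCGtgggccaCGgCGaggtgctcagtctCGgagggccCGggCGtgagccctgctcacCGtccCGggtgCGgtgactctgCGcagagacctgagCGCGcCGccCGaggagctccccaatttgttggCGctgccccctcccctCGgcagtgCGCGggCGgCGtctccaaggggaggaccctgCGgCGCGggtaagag
Col3a1: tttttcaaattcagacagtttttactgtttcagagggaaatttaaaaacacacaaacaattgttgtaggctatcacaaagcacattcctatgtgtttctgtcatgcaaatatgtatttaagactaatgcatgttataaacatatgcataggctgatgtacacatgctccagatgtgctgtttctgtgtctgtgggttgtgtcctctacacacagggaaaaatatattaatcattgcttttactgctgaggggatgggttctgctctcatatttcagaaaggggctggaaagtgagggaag

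The Col6a1 window was covered to 62% by a peak of fold 3.57, the Col6a3 window to 77.3% by a peak of fold 2.77, and the inner Col18a1 window wholly by a peak of 2167 bp and fold 3.67. The Col6a3 peak was among the weakest of the list, with a −log10 q of 1.02. The CG-dense windows stayed clear: none of the 14 collagen windows with 16 CG or more was under a peak, and of all 9239 such windows 0.368% were. In windows with 6 to 15 CG the figures were 1 of 13 for collagen genes and 9.52% over all, and with 5 or fewer 2 of 9 and 5.82%. The nearest peak was 1576 bp from the Col4a1 window and 1798 bp from the Col4a2 window, which held 37 and 33 CG. It was 1498 bp from the window of Col8a2, the gene with the next highest coverage after Col2a1, which held 32. Col3a1 and Col1a2, with 0 and 13 CG, had their nearest peak 42094 and 31419 bp away.

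Peaks close to the boundaries of collagen genes were found at both starts and ends. A peak within 1 kb of either end was found for 16 of the 42 collagen genes (38.1%; 23.6 to 54.4), against 27.9% of all genes. Of the 33 collagen genes of known strand, 6 had a peak within 1 kb of the start (Col6a1, Col6a3, Col6a6, Col7a1, Col8a1 and Col9a2), against 8.76% of all genes of known strand. A peak within 1 kb of the end was found for 10 of the 33, among them Col4a1, Col8a2, Col11a2 and Col15a1, against 22.4% of all genes. With windows of 250 bp the count at either end was 5 of 42 (11.9%), against 13.8% of all genes. The interval at 1 kb holds the 27.9% of all genes, and the order was reversed at 250 bp, so no higher share was shown. Starts and ends were not counted apart with the 250 bp windows. Inside the genes, the 220 peaks of the 33 collagen genes were spread over the whole length. When each gene was cut into 5 equal parts, the part nearest the start held 20.5% (15.3 to 26.4) of them and the last part 21.8% (16.5 to 27.9), against 18.6% and 23.5% of 44547 peaks in 12775 genes of 5 kb or more.

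Among the fibrillar collagens, which make the cables of connective tissue, coverage ran from none to the highest of the family. Of 11 genes, 7 had a peak and 5 were covered above their like-length median, and the class median was 2.23%. Col2a1, the chain of cartilage type II collagen, was the most covered collagen gene. Its 29.1 kb span on mm10 (chromosome 15, 97975602 to 98004724) was covered to 44.5% by 5 peaks, against a like-length median of 4.73%, and it ranked above 99% of those genes. A peak of 6779 bp (97976520 to 97983298, fold 3.31) and one of 4078 bp (97994373 to 97998450, fold 3.46) made up most of it. Between them lay peaks of 297, 1462 and 340 bp with folds of 3.04, 3.05 and 3.67. All 5 were weak by q, with a highest −log10 q of 2.39, so none was left at a −log10 q of 3. The last pair of these peaks also lay in Gm46536, an unnamed gene model. The other cartilage fibril chains differed from each other. Col11a2, which joins type II fibrils, was covered to 14.8% by 6 peaks of fold 2.77 to 3.07. Col11a1, its partner chain, had no peak in 190.3 kb.

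Type I collagen, the protein of bone, skin and tendon, was split in the same way. Col1a1 (chromosome 11, 94936224 to 94953042) was covered to 14.2% by 3 peaks, of 1016, 336 and 1033 bp and of fold 2.90, 2.77 and 3.38. Col1a2 (chromosome 6, 4505618 to 4541543) had no peak in 35.9 kb, and the nearest peaks lay 31.7 kb and 70.8 kb from its ends. Both chains occur in the same trimer, and their genes lie on different chromosomes. Col1a1 exceeded its like-length median of 7.40%, and the like-length median of Col1a2 was 4.50%.

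Col3a1, which accompanies type I collagen in skin and vessels, and Col5a2, a chain that limits fibril diameter, were neighbours without a peak. They lie 24.6 kb apart on chromosome 1, and a stretch of 287.9 kb around both held no peak at all. Col5a1, the main partner of Col5a2, had 13 peaks over 153.1 kb and a share of 7.64%, above its like-length median of 3.86%. Col5a3 had 2 peaks and 2.23%, below its median of 5.86%. The minor fibrillar gene Col27a1 had 13 peaks and 7.51%, and Col24a1 had 6 and 2.09%, against medians of 4.03% and 2.56%. A Col27a1 peak overlapped Mir455, a microRNA gene within it (chromosome 4, 63256851 to 63256932).

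**Figure D3:**
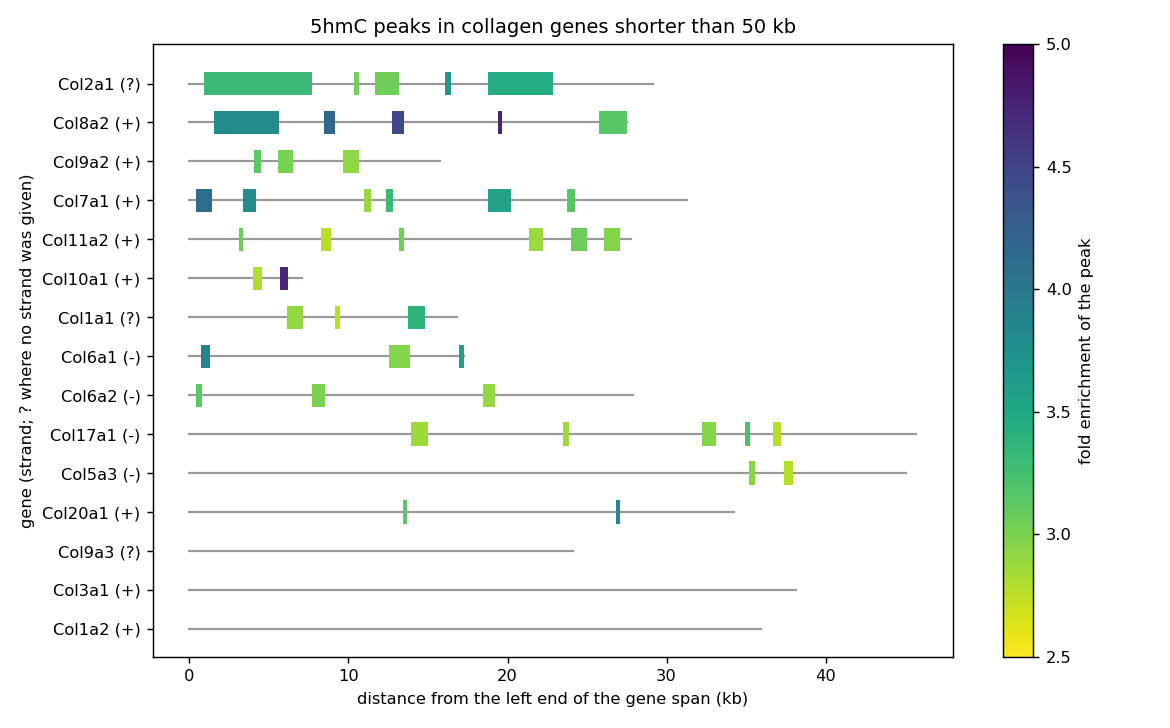
Peaks (bars, coloured by fold enrichment) along the 15 collagen genes shorter than 50 kb, ordered by covered share, with kb from the left end of the span on the horizontal axis and the strand, where known, beside each name. Col2a1 carries wide peaks of 6779 and 4078 bp, Col8a2 one of 4091 bp, and Col9a3, Col3a1 and Col1a2 carry none.

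The fibril-associated collagens with interrupted triple helices (FACIT), which coat the surface of fibrils, were covered least densely. Of 9 genes, 7 had a peak and 2 were above their like-length median, the class median was 1.48%, and the density was 2.37 peaks per 100 kb (1.59 to 3.41), against 5.02 over all collagen genes. That density is pooled over 1.22 Mb and was not matched for length. Most of it lies in Col22a1 (355.2 kb), Col19a1 (330.2 kb) and Col14a1 (213.2 kb). The type IX chains, which decorate type II fibrils in cartilage, did not resemble each other. Col9a2 was covered to 14.9% by 3 peaks of fold 2.92 to 3.12, Col9a1 to 1.25% by 3 peaks, and Col9a3 not at all, although a peak began 0.245 kb past its right end. Col16a1 had 8 peaks and 6.91%, and was the other FACIT gene above its like-length median of 3.92%. Col12a1, found on type I fibrils, had no peak in 122.2 kb. Col14a1 (1.86%), Col19a1 (1.73%), Col20a1 (1.48%) and Col22a1 (0.836%) were below their medians of 3.56%, 2.20%, 4.58% and 1.98%.

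Type IV collagen forms the network of basement membranes, and its genes are known to lie head to head in pairs. Here coverage differed by pair. Col4a1 and Col4a2, which occur together in nearly all basement membranes, overlap by 85 bp on chromosome 8, and both were above their like-length medians. Col4a1 had 10 peaks and 9.24%, against a median of 4.04%. Col4a2 had 18 peaks and 10.7%, against 4.19%. Peaks ran along both genes, from 7.95 to 113.2 kb from the start in Col4a1 and from 2.37 to 133.7 kb in Col4a2 by peak midpoint, and none lay on the shared start. Col4a3 and Col4a4, the chains of the kidney filter, overlap by 114 bp on chromosome 1, and both were below their medians. Col4a4 had 4 peaks and 2.59%, against 3.76%, and Col4a3 had 1 peak and 0.340%, against 4.10%. A peak of Col4a4, 80.8 kb from its start, reached a fold of 6.15. On the X, where the rule did not look, Col4a5 had 1 peak (0.225% of its span) and Col4a6 had none.

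Among type VI collagens, which form beaded filaments around cells, and the related Col28a1, all 7 genes had a peak and 4 were above their like-length medians. Col6a1 had 3 peaks and 12.3%, and Col6a2, 85.2 kb away on chromosome 10, had 3 peaks and 7.20%, with 7 further peaks between them. Col6a3, the longest chain of the classical type VI trimer, had 12 peaks and 11.6% over 77.1 kb, ahead of 88% of its like-length genes. A tandem array on chromosome 9 was uneven. Col6a6 had 13 peaks and 6.13%, Col6a5, 27.8 kb away, had 2 peaks and 0.697%, and Col6a4 had 5 peaks and 2.64%. The like-length medians of these array genes were 3.42%, 4.02% and 4.21%. Col28a1 had 2 peaks in 196.6 kb and 1.00%, against 3.01%, but one of them, 86.4 kb from its start, had a fold of 6.70.

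The short-chain network collagens, of cornea, vessels and growth plate, included Col8a2. That gene (chromosome 4, 126286794 to 126314330), which encodes a chain of Descemet's membrane of the cornea, was covered to 27.5% by 5 peaks, against 5.01%. Its widest peak, of 4091 bp, was centred 3.59 kb from the start, and 3 of the 5 had a −log10 q of 3 or more. Col8a1, the partner chain, had 2 peaks and 0.618% in 130.5 kb, against 4.18%. Col10a1, the collagen of hypertrophic cartilage, was covered to 14.3% by 2 peaks of fold 2.80 and 4.74. It lies within the span of Nt5dc1, so these peaks belong to both genes, and its like-length genes had a median of 0%. Col7a1, the anchoring fibril of the skin, was covered to 14.8% by 6 peaks, against 5.30%. Its first peak, centred 0.909 kb from the start, had a fold of 4.13.

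The transmembrane collagens all had peaks, and 3 of 4 were above their like-length medians. Col13a1, found at the neuromuscular junction, had 17 peaks and 13.5% over 141.0 kb, against 3.80%, ahead of 88.5% of its like-length genes. Col17a1, of the hemidesmosomes of skin, had 5 peaks and 6.66%, against 5.49%. Col23a1 had 18 peaks and 5.78% over 294.2 kb, against 2.33%. Col25a1, a neuronal collagen and the longest gene of the family at 419.5 kb, had 5 peaks and 0.727%, against 1.77%. Both multiplexins, basement membrane collagens from which endostatin-like fragments are released, were above theirs. Col18a1 had 16 peaks and 12.2%, against 4.11%, and Col15a1 had 12 peaks and 9.60%, against 3.59%. Together they had 12.7 peaks per 100 kb (8.46 to 18.4). Col26a1, known from mouse testis and ovary, had 9 peaks and 3.05%, against 3.90%.

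Chains of the same collagen type differed in coverage. The highest minus the lowest share within a type was 26.9 percentage points for the 2 type VIII genes and 14.9 for the 3 type IX genes. It was 14.8 for the 2 type XI, 14.2 for the 2 type I, 11.6 for the 6 type VI, 10.4 for the 4 autosomal type IV and 7.64 for the 3 type V genes. These differences are between genes of 1 library and have no replicate. Types differ in their number of chains, and chains of a type differ in length, as Col8a2 (27.5 kb) and Col8a1 (130.5 kb) do. The spread among other genes of such lengths was not computed, so the differences have no background to stand beside.

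The 10 peaks with the highest fold were spread over 7 genes, of which only Col13a1 was among the 10 most covered collagen genes. These 7 were long genes, from 138.6 kb (Col4a4) to 355.2 kb (Col22a1). The top peak, of fold 8.74 and 2678 bp, lay 167.8 kb from the start of Col19a1, near the middle of that gene (chromosome 1, 24418791 to 24421468). Col23a1 held 3 of the 10, with folds of 8.35, 6.83 and 5.79, at 147.4, 152.6 and 229.9 kb from its start. Col28a1 (6.70), Col4a4 (6.15), Col22a1 (6.04), Col6a6 (5.67 and 5.44) and Col13a1 (5.43) held the others. Among the 36 genes with a peak, the Spearman correlation of covered share with the highest fold was -0.18, and that with peaks per 100 kb was 0.95. The correlation of gene length with the highest fold was 0.49. These correlations are across genes of 1 library, and share is built from the number of peaks, so they are descriptions only. When only peaks with a −log10 q of at least 3 were kept, Col8a2 (6.20%) and Col6a3 (4.66%) ranked above 90% of like-length genes. Col2a1 then had no peak. With a −log10 q of 5 or more, Col4a4 (2.16%) and Col23a1 (1.49%) ranked above 90%, and Col2a1 and Col8a2 had no peak.

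**Figure D4:**
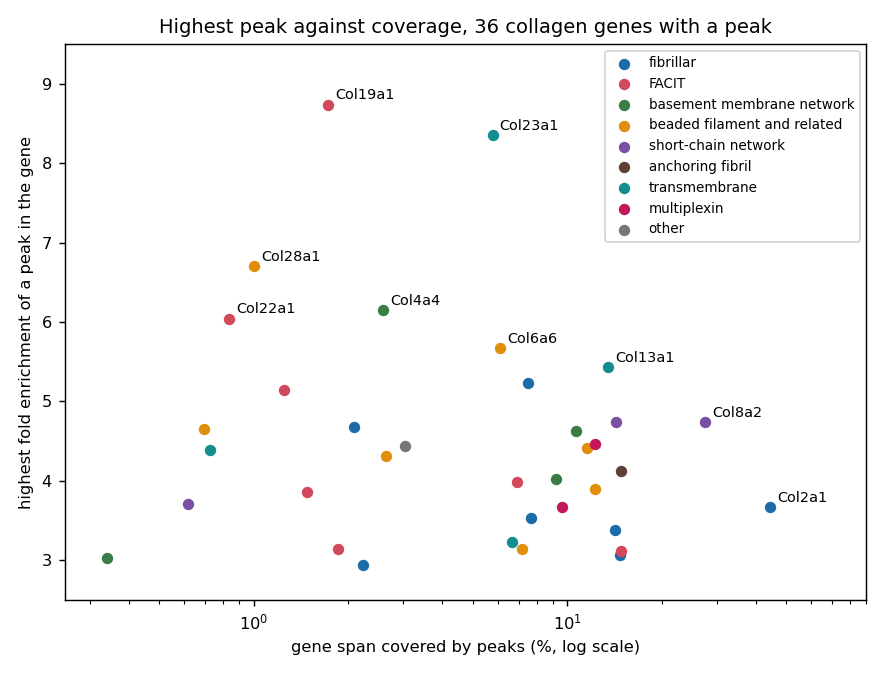
Each point is 1 of the 36 collagen genes with a peak, with its covered share in percent on a log axis and the highest fold enrichment of a peak in the gene. Col19a1 and Col23a1 reach folds of 8.74 and 8.35 at shares of 1.73% and 5.78%, and Col2a1, at 44.5%, reaches 3.67.

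The coverage of collagen genes varied with that of their surroundings. The Spearman correlation between the share of the gene and that of the 100 kb on each side was 0.58 over the 42 genes, against 0.44 over all autosomal protein-coding genes. Gene and flanks come from the same library and adjoin each other, and their base composition was not computed. Where collagen genes are neighbours, such as Col4a1 and Col4a2, the flank of one takes in sequence of the other, so the same peaks count on both sides. The median flank was covered to 4.60% for collagen genes and 5.32% for all genes. The gene was covered above its flanks in 20 of 42 collagen genes (47.6%; 32.0 to 63.6), against 37.5% of all genes. A gene without a peak cannot exceed its flanks, and 64.3% of all genes had a peak, against 85.7% of collagen genes. The 37.5% is therefore not a like-length share. Col2a1 had the second highest flank, at 12.6%, and still exceeded it by over 10 percentage points, as did Col8a2 (11.2%), Col9a2 (3.56%) and Col10a1 (0.420%). In the other direction, Col16a1 had flanks of 13.2%, Col5a3 of 10.8% and Col28a1 of 7.92%, each above the gene itself. By length, 12 of 18 collagen genes under 100 kb were above their like-length median, where 42.7% of all such genes were. Of longer ones, 9 of 24 were, where 49.7% of all genes of 100 kb or more were. The difference was not tested. The 42.7% is lowered by very short genes that tie with a like-length median of 0%. Only 1 collagen gene, Col10a1, had such a median.

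**Figure D5:**
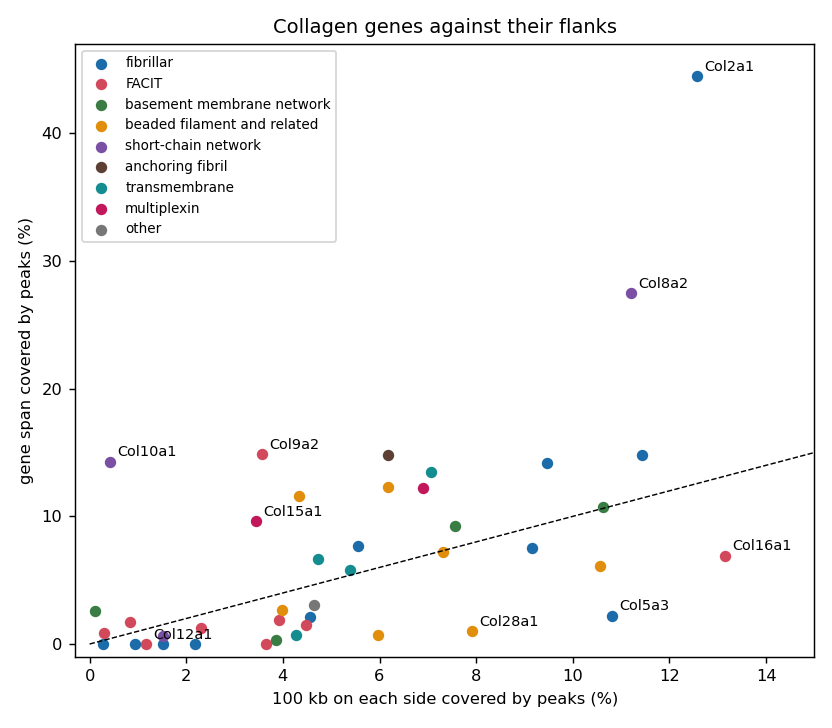
Each point is a collagen gene, with the percentage of 100 kb on each side that peaks cover on the horizontal axis and that of its own span on the vertical axis; the dashed line marks equal shares. Col2a1, Col8a2, Col9a2 and Col10a1 lie more than 10 points above the line, and Col16a1 and Col5a3 lie below it.

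The genes that make, bind or degrade collagen, and its partners in basement membranes, also had peaks. Among 30 genes of collagen folding, modification and cross-linking, 27 had a peak, 21 were above their like-length median, and the median share was 7.56%, and the median of their like-length medians was 4.47%. Serpinh1, the collagen chaperone of the endoplasmic reticulum, was covered to 49.5%, and Plod1, a lysyl hydroxylase, to 30.7%. Among 10 collagen receptors 7 had a peak and 5 were above, with a median of 4.78% against a like-length 4.02%, led by Mrc2, the endocytic collagen receptor, at 32.1% and the discoidin receptor Ddr1 at 31.6%. Among 7 collagen-degrading enzymes 4 had a peak and 4 were above, led by the proteases Mmp14 at 36.5% and Mmp9 at 21.7%. The median of that list was 2.88%, below a like-length 5.30%, and the collagenase genes Mmp13, Mmp1a and Mmp8 had no peak. Among 15 basement membrane partners 14 had a peak and 12 were above, with a median of 11.2% against a like-length 3.98%, led by the laminin gene Lamb2 at 74.0% and the agrin gene Agrn at 34.8%, while Lama2, a laminin gene of 635.9 kb, had no peak. Counts above the like-length median stand beside 21 of 42 collagen genes and 43.5% of all genes. Counts with a peak stand beside 36 of 42 collagen genes and 64.3% of all genes. The 43.5% and 64.3% include many short genes without a peak. The differences between lists were not tested.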

How the data were processed

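The authors' deposited file is a list of broad peaks on mm10 for the captured library. The submitters' processing notes list mm10, MACS2 2.1.0, Bowtie2 2.5.0, deepTools 3.5.1, Trim Galore, bedtools 2.27.1 and SAMtools 1.16.1. What each tool did, with which settings, and what control the peaks had were not given in the sources used here. Each peak in the deposited list has a fold enrichment (a ratio), a −log10 p and a −log10 q, all the authors' values, and a score, which was not used. The lowest −log10 q was 1.01, so weak calls are included.

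Gene spans came from RefSeq on GRCm38.p6, the assembly of mm10; 105 coding genes starting in the first 3 Mb of an autosome were left out. A peak counted for a gene with an overlap of at least 1 bp. The covered share was ranked among the 200 autosomal coding genes nearest in log length, ties split evenly. RefSeq windows gave the strand of 33 collagen genes. The computation used Python 3.11.15, numpy 2.4.6, pandas 2.3.3 and scipy 1.17.1, and was tested on simulated spans. No read depth was given and no test across samples was possible. The members, gene lists and classes were chosen with earlier results of these data known. Every collagen gene could be named, and of each other list the 2 members with the largest share; the marker genes, Lama2, the collagenases and further matrix genes were named after their values were seen. All list symbols were used except Bgn, on the X.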

Additional observations from a re-analysis of the deposited data

How the results depend on the processing

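No paired analysis was possible because each group holds 1 library. Of 48 alternatives over 8 values, 36 stayed within 1.5 times the reported count or within its interval, and 12 did not. The peak threshold accounts for 11 of them by its construction, since fewer peaks are kept. With −log10 q of at least 3 and 5, peaks overlapped 20 and 8 collagen genes, the median covered share was 0% in both, peaks per 100 kb were 0.711 and 0.244, the median fold was 4.66 and 5.92, and gene ends had a peak in 2 and 0 genes. Over all genes at the same settings, 23.7% and 9.24% had a peak, the median share was 0%, peaks per 100 kb were 0.820 and 0.287, and 4.18% and 1.31% had a gene-end peak, close to the collagen values for gene ends. With at least 5, 8 collagen genes were above their like-length median, where 8.92% of all genes were. These are the same 8 that held such a peak. Over all genes, too, the 8.92% nearly equals the 9.24% with such a peak. The count therefore adds no comparison by length. The remaining one is the gene-end window of 250 bp, with 5 genes (11.9%), against 13.8% of all genes. Merging peaks, midpoints, wider or trimmed spans, 500 like-length genes, genes free of overlap and 1 gene per run of neighbours changed no value beyond these limits. Flanks of 50 and 500 kb, chosen after the data were seen, gave 19 and 18 genes above their flanks (45.2% and 42.9%), against 38.5% and 37.6% of all genes, of every length. Depth per peak is unknown, so a gene without a peak may hold 5hmC below the threshold of the list.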

Other observations

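Of the other matrix genes, 8 of 12 had a peak, where 64.3% of all genes had one, and 3 were covered above their like-length median. The median share of the list was 0.686%, below a like-length 4.09%. The 4 most covered were these. Fn1, the fibronectin gene, was covered to 19.9% by 10 peaks, and Sparc, a collagen-binding matrix protein gene, to 11.7% by 3. Fbn2 and Fbn1, the fibrillin genes, had 22 and 13 peaks and shares of 6.93% and 3.24%. Dcn and Lum, whose small proteoglycans bind collagen fibrils, and Postn and Thbs1 had no peak, and Tnc, Eln, Acan and Vcan had shares between 0.424% and 2.28%.

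Peaks in 10 collagen genes overlapped another annotated gene, 32 of the 247 peaks in all, and except for Nt5dc1 and Mir455 these were gene models with Gm or Rik names. Mir711, a microRNA gene inside Col7a1, had no peak.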
